A study of Mus musculus with 8 samples.

Results

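The levels of 7 axon guidance genes were followed across sorted mouse CD4+ T cells: the co-receptor gene Nrp1, the semaphorin genes Sema4a, Sema4d and Sema7a, the netrin gene Ntn4, and the ephrin genes Efna5 and Efnb1. They were taken as the 18 probe sets whose platform symbol is one of these 7 genes, of 45037 probe sets and 18193 genes in all. The 7 genes were chosen on their measured levels in these arrays, so their values are given as a description and carry no test. Each gene is represented by whichever of its probe sets had the highest mean, and the others are given beside it.

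The study used 8 Affymetrix arrays, 1 per sample of CD4+ T cells sorted by fluorescence from mice whose Foxp3 allele carried a reporter, enhanced green fluorescent protein (EGFP). Foxp3, a transcription factor gene on the X chromosome, marks regulatory T cells, and the EGFP-positive cells came from hemizygous males. From mice with the tagged wild-type allele came 3 arrays labelled WT EGFP-positive and 1 labelled WT EGFP-negative. From mice with the tagged mutant allele, called delta in the labels, came 3 arrays labelled mutant EGFP-positive and 1 labelled mutant EGFP-negative. All 4 groups thus carry the EGFP tag, and the labels give no strain, age or treatment. No source used here says that the replicates came from separate animals, so errors and p-values cover only the sample-to-sample spread seen here, which may be technical.

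Neuropilins, plexins, semaphorins, netrins and ephrins were first known for steering growing axons, and the same ligands and receptors act between immune cells. Semaphorins are secreted or membrane-bound ligands that signal through plexins, with neuropilins as co-receptors. Netrins are secreted proteins related to laminins, and ephrins are membrane-bound ligands of the Eph receptor tyrosine kinases. In mouse CD4+ T cells, neuropilin-1 is widely used as a surface marker of regulatory T cells that arise in the thymus, and Sema4a on other cells is one of its ligands.

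The arrays shared a scale, with median intensities of 53.3 to 54.7, and log2 values correlated at 0.98 to 0.9918 within the replicated groups and at 0.954 to 0.9858 between groups. The Foxp3 probe set read 4.64 to 4.86 on the arrays labelled WT EGFP-positive, 4.52 on the WT EGFP-negative array, 6.14 on the mutant EGFP-negative array and 11.10 to 11.51 on the mutant EGFP-positive arrays. A low Foxp3 reading goes against the WT EGFP-positive label, so all groups are named by their labels. Every mutant against WT direction below follows these labels and would turn if the alleles were exchanged in them, which was not tested. Ikzf2, which encodes the regulatory T cell factor Helios, read 12.09 to 12.26 on the WT and 12.09 to 12.12 on the mutant EGFP-positive arrays, against 7.98 on the WT and 11.48 on the mutant EGFP-negative array. Ikzf2 separated the WT EGFP-negative array but not the EGFP-positive groups from each other. Other regulatory T cell markers did separate them: Il2ra, Itgae, Gpr83, Izumo1r and Capg were lower on every mutant than on every WT EGFP-positive array. Gpr83, for example, read 11.42 to 12.24 on WT and 9.46 to 10.22 on mutant arrays. Ctla4, Tnfrsf18, Tnfrsf4 and Il2rb overlapped between these groups. Among T cell markers, Cd3e read 12.04 to 12.81 and Cd4 11.07 to 11.42 over all arrays. Cd2, Cd5, Cd28 and Cd247 were lower on every mutant than on every WT EGFP-positive array. Cd4 was higher on every mutant one, and Cd3e, Cd3d and Cd3g overlapped. The CD4 T cell markers summed to 33634.4 to 36063.9 on WT and 29320.5 to 30912.5 on mutant EGFP-positive arrays.

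Between the EGFP-positive groups, Nrp1 and Ntn4 were lower with the mutant allele, and Sema4a, Sema4d and Sema7a were higher by the representing probe set, with no overlap between the arrays of each group. The arrays overlapped for Efna5 and Efnb1. Non-overlap thus held for 5 of 7 genes, where 34.2% of all genes did not overlap. By probe set it held for 10 of 18, with 4 higher and 6 lower, where 29% of all probe sets did not overlap. Since these values chose the genes, nothing is read from that count.

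**Figure D1:**
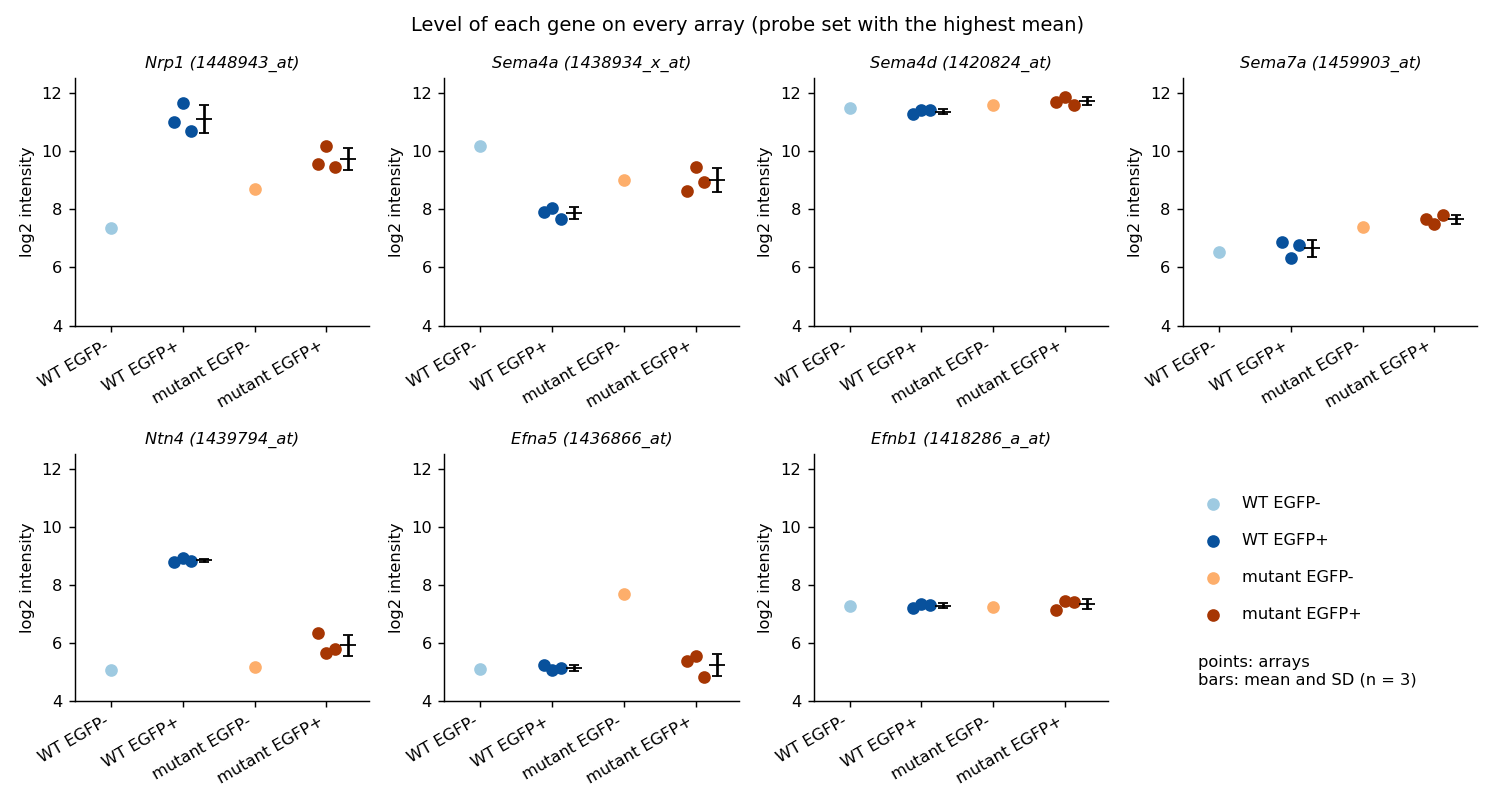
Log2 intensity of the representing probe set of each of the 7 genes, one panel per gene, on each array (points) in the 4 labelled groups, with the mean and SD of the groups of 3 (bars). Ntn4 is at 8.80 to 8.91 on the WT EGFP-positive arrays and at 6.33 or below elsewhere, Nrp1 is highest on the WT EGFP-positive arrays and lowest on the WT EGFP-negative array, Sema4a runs the opposite way, and Efna5 is highest on the mutant EGFP-negative array.

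Nrp1 encodes neuropilin-1, a co-receptor for semaphorins and vascular endothelial growth factors (mouse GRCm38.p6, RefSeq, chr8:128358591-128505476). Its log2 level was 11.00, 11.64 and 10.70 on WT EGFP-positive replicates 1, 2 and 3, with a mean of 11.11 ± 0.48 (SD, n = 3). It was 9.55, 10.17 and 9.47 on the mutant EGFP-positive arrays, with a mean of 9.73 ± 0.38 (SD, n = 3), 8.69 on the mutant EGFP-negative array and 7.34 on the WT EGFP-negative array. No group overlapped another, and that was their order from high to low.

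The Nrp1 level differed by -1.39 (SE 0.27) on mutant against WT EGFP-positive arrays, or 2.61-fold. EGFP-positive exceeded EGFP-negative arrays by 3.78 (SE 0.39) with the WT allele and by 1.03 (SE 0.39) with the mutant allele. The mutant EGFP-negative array was 1.36 above the WT EGFP-negative array, so the narrower gap in mutant cells came with both a lower EGFP-positive and a higher EGFP-negative level. The summed intensity of the regulatory T cell marker list moved with Nrp1, at 28345 to 30531.3 on WT and 22858.9 to 26260.2 on mutant EGFP-positive arrays, 12123.9 on the mutant and 3465.1 on the WT EGFP-negative array. Not every member of the list moved this way between the EGFP-positive groups. Foxp3 ran the opposite way, and Ctla4, Ikzf2, Tnfrsf18, Tnfrsf4 and Il2rb overlapped. The part of this list in the Nrp1 and Sema4a levels was not tested. The errors of every comparison with a single EGFP-negative array assume that this array varies like the replicated groups. In bulk samples, fewer cells that express a gene and less RNA per cell cannot be told apart.

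Another pair of Nrp1 probe sets gave differences close to these. Mutant minus WT EGFP-positive was -1.32 for 1418084_at and -1.40 for 1448944_at, and WT EGFP-positive minus EGFP-negative was 3.79 and 3.78. The fourth, 1457198_at, read 8.14, 8.53 and 7.57 on the WT and 6.41, 6.65 and 8.15 on the mutant EGFP-positive arrays, so its groups overlapped through mutant replicate 3. Its mean difference was -1.01 (SE 0.45).

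Nrp1 is also expressed by plasmacytoid dendritic and endothelial cells. A list of 11 endothelial and stromal markers summed to intensities of 564.4 to 715.4 over the 8 arrays, and 5 of them lay above the median log2 value of 5.75 on at least 1 array. Of its endothelial members, Cdh5 read 4.40 to 5.13, Tek 4.58 to 4.82 and Kdr 5.60 to 6.53. Of the plasmacytoid dendritic cell list, 6 markers summed to 1138 to 1267.4 on WT and 1622.3 to 1996.6 on mutant EGFP-positive arrays, and to 1117.5 on the WT and 2121.3 on the mutant EGFP-negative array. Its defining member Siglech read 5.57 to 6.71 over the 8 arrays. Siglech was lower on every mutant than on every WT EGFP-positive array, at 5.57 to 5.79 against 5.86 to 6.09. Irf8 and Ccr9 were higher on every mutant than on every WT EGFP-positive array. Irf8 read 7.88 to 8.34 on WT and 9.0 to 9.53 on mutant arrays, and Ccr9 8.48 to 8.63 and 9.24 to 9.46. Bst2, Tcf4 and Spib overlapped between these groups. The part of these lists in the Nrp1 levels was not tested. On a list of 10 myeloid markers, WT EGFP-positive replicate 3 was highest at 1738, with Csf1r at 9.85, while the other WT EGFP-positive arrays reached down to 597.6 and the mutant ones lay at 603 to 790.7. Without that replicate the Nrp1 difference was -1.59.

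Sema4a encodes a membrane semaphorin of dendritic cells and activated T cells (chr3:88435959-88461182). Its log2 level was 7.92, 8.04 and 7.65 on the WT EGFP-positive arrays (7.87 ± 0.20, SD, n = 3) and 8.62, 9.46 and 8.93 on the mutant EGFP-positive arrays (9.0 ± 0.43, SD, n = 3). The WT EGFP-negative array was the highest at 10.16. The mutant EGFP-negative array, at 9.02, lay inside the range of the mutant EGFP-positive arrays, so these neighbours in the order did not differ beyond their spread.

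Sema4a was thus 1.13 higher (SE 0.22, 2.19-fold) on mutant than on WT EGFP-positive arrays. With the WT allele the EGFP-positive arrays were below the EGFP-negative array, by a difference of -2.29 (SE 0.31), or 4.88-fold. With the mutant allele that difference was -0.02 (SE 0.31). The other probe set, 1448110_at, gave 1.55 (SE 0.13), -2.42 (SE 0.19) and -0.11 for the same 3 differences, and its level on the mutant EGFP-negative array, 9.15, was again within the mutant EGFP-positive range of 8.83 to 9.22. The myeloid list, which marks cells that express Sema4a, summed to 634.7 on the WT EGFP-negative array, where Sema4a was highest. Its part in the Sema4a levels was not tested.

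Sema4d encodes CD100, a membrane semaphorin abundant on resting T cells that binds plexin-B1 and CD72 (chr13:51685529-51793678). Log2 levels were 11.27, 11.41 and 11.40 on WT and 11.68, 11.87 and 11.60 on mutant EGFP-positive arrays, and 11.47 and 11.57 on the WT and mutant EGFP-negative arrays. The EGFP-positive groups did not overlap, with a difference of 0.35 (SE 0.12), and the means of the 4 groups spanned 0.35 in all. The 3 Sema4d probe sets disagreed. 1420823_at overlapped between the groups (0.19, SE 0.15), and 1434596_at was lower on mutant arrays, at 5.86, 6.12 and 5.88 against 7.13, 7.02 and 6.88 (difference -1.06, SE 0.12). No direction is therefore given for the gene, and the mean of its probe sets differed by -0.17.

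Sema7a encodes a semaphorin anchored to the membrane by a lipid, which binds integrins and plexin-C1 (chr9:57939596-57962865). Its log2 level was 6.87, 6.33 and 6.78 on WT and 7.67, 7.48 and 7.81 on mutant EGFP-positive arrays. The EGFP-negative arrays followed the allele, at 6.54 for WT and 7.39 for mutant. EGFP-positive minus EGFP-negative was 0.12 and 0.26, while mutant minus WT was 0.99 (SE 0.17, 1.99-fold) among EGFP-positive arrays and 0.84 between the single EGFP-negative arrays. The second probe set, 1422040_at, lay at 4.75 to 5.43 on all arrays, below the median of all probe sets, and its groups overlapped (0.15, SE 0.18).

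Ntn4 encodes netrin-4, a secreted netrin that binds laminins of basement membranes (chr10:93641049-93745972). Its log2 level was 8.80, 8.91 and 8.82 on the WT EGFP-positive arrays (8.84 ± 0.06, SD, n = 3). On the mutant EGFP-positive arrays it was 6.33, 5.65 and 5.80, and on the EGFP-negative arrays 5.09 for WT and 5.19 for mutant. The WT EGFP-positive arrays stood apart from the other 5, and the EGFP-negative arrays were below the median of all probe sets.

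Mutant minus WT EGFP-positive was -2.92 for Ntn4 (SE 0.18), the widest such difference among the 7 genes. WT EGFP-positive minus EGFP-negative was 3.75 (SE 0.25) and mutant EGFP-positive minus EGFP-negative 0.74 (SE 0.25), so all 3 mutant EGFP-positive arrays were still above their EGFP-negative array. The second probe set, 1450512_at, read 8.28, 7.75 and 8.06 on WT and 5.90, 5.64 and 5.62 on mutant EGFP-positive arrays, a difference of -2.31 (SE 0.16). Both probe sets were lower on mutant arrays, but the sizes were further apart than their standard errors. Array titles begin with 3 number series, which are not explained in the labels. Within each of them the representing probe set gave -2.47, -3.26 and -3.02.

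Ntn4 and Sema4a differed in opposite directions between the alleles, so the bases before their first annotated starts are shown 5′ to 3′ (RefSeq, GRCm38.p6), with CpG in capitals. For Ntn4 the stretch is chr10:93640799-93641048 on the plus strand, and for Sema4a chr3:88461183-88461432 on the minus strand.
Ntn4: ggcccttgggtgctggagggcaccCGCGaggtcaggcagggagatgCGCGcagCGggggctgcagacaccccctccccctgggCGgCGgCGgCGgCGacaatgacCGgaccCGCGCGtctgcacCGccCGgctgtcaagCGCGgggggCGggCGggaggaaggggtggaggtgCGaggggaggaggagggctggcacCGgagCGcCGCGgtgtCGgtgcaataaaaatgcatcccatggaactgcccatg
Sema4a: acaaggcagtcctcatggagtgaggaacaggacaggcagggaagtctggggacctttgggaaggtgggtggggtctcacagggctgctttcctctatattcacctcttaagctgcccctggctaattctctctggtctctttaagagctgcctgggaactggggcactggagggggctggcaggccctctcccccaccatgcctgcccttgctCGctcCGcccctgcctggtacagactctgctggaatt
The Ntn4 stretch holds 26 CpG and 73.2% G or C, and the Sema4a stretch 2 CpG and 59.6%. The same 250 bases before the other Sema4a starts hold 3, 13 and 6 CpG. Those of Nrp1 hold 11, of Sema7a 17, of Efnb1 13, of Efna5 32 and of Sema4d 1 to 2. A relation of CpG number to the differences was not tested. Over all 32851 windows the median was 6 CpG, with 25 at the 90th percentile, and 52.4% G or C. RefSeq gave 12 windows of 300 bases (250 before and 50 after a start) for the 7 genes. They were searched on both strands for the forkhead motif TGTTTAC, held by 3.65% of all windows, the Runx motif TGTGGT (16.8%), the STAT motif TTCNNNGAA (8.3%) and the AP-1 motif TGANTCA (7.81%). These letters were absent from 11 of the 12 windows, and 1 Sema4d window held 1 Runx and 1 AP-1 match. A match is a description of letters and marks no binding site.

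Efna5 encodes ephrin-A5, an ephrin anchored by a lipid that binds EphA receptors (chr17:62602957-62881317). Its log2 level was 7.70 on the mutant EGFP-negative array and 4.84 to 5.55 on the other 7 arrays, all of them below the median of all probe sets. The mutant EGFP-negative array exceeded the WT EGFP-negative array by 2.57, and the next highest array by 2.14. That rests on 1 array without a replicate. The second probe set, 1421796_a_at, was also highest on that array, at 4.92 against 4.19 to 4.51.

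Of all genes with 1 symbol, 2 were highest on the mutant EGFP-negative array by at least 2 log2 units: Efna5 and Tdgf1, which encodes Cripto, a co-receptor for Nodal ligands. Tdgf1, named here after its values were seen, read 8.11 on that array and 4.25 to 5.18 on the other arrays. Between the single EGFP-negative arrays, 3 of the 7 genes were at least 2-fold apart (Nrp1 and Efna5 higher and Sema4a lower with the mutant allele), where 4.82% of all genes were. These levels were among those that chose the genes, so nothing is read from that count or from the rank of Efna5.

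Efnb1 encodes ephrin-B1, a transmembrane ephrin that binds EphB receptors (chrX:99136061-99149022). Log2 levels lay at 7.15 to 7.46 on all 8 arrays, and the means of the 4 groups spanned 0.12. Mutant minus WT EGFP-positive was 0.07 (SE 0.12). The other probe sets gave -0.13 and 0.09, and the EGFP-positive arrays overlapped for all 3. These other probe sets were lower on the mutant than on the WT EGFP-negative array, each a single array. There 1418285_at read 4.77 against 5.70, and 1451591_a_at 5.59 against 6.36. Of the 7 genes, Efnb1 had the narrowest span by the representing probe set.

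**Figure D2:**
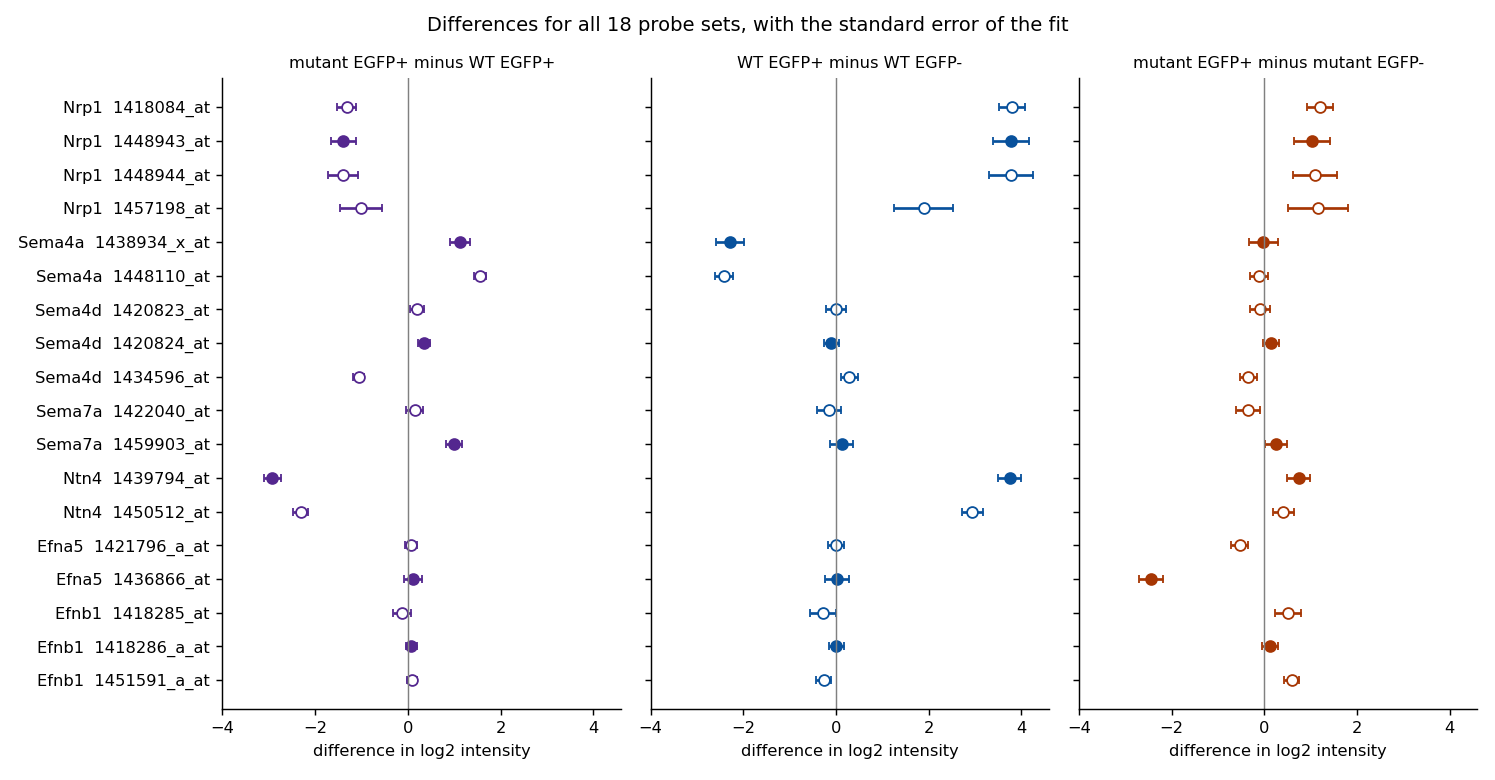
Differences in log2 intensity, with the standard error of the fit, for all 18 probe sets in 3 comparisons: mutant against WT EGFP-positive, and the EGFP contrast within each allele. Of the Nrp1 probe sets 3 lie together in each comparison, the Ntn4 probe sets share a direction at different sizes, and the Sema4d probe sets fall on both sides of 0.

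The genes whose profiles over the 8 arrays were closest were found by the root mean square difference in log2 level after each gene was centred on its own mean, among 12159 genes. For Nrp1 they were Capg, an actin-capping protein (0.40), Lamc1, a laminin chain (0.415), and Klrg1, a lectin-like receptor (0.447). For Sema4a they were Il1rl2, an IL-36 receptor subunit (0.194), Pxylp1 (0.253) and Evi2a (0.321). Capg is a gene of the regulatory T cell marker list, and read 11.05 to 11.53 on the WT and 10.33 to 10.56 on the mutant EGFP-positive arrays.

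The Ntn4 profile was closest to those of Cyp4f18 (0.405), the G protein-coupled receptor gene Gpr83 (0.584) and the chemokine receptor gene Ccr6 (0.592). Cyp4f18, a cytochrome P450, read 7.59 to 8.19 on the WT EGFP-positive arrays and 4.23 to 4.59 on the other 5. The genes closest to Efna5 were Pdzrn3 (0.326), Tspan9 (0.37) and Trim16 (0.407). Their levels on the mutant EGFP-negative array were 6.31, 8.91 and 7.75, each above every other array. The profiles share arrays and scale, and no shared function is read from them.

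**Figure D3:**
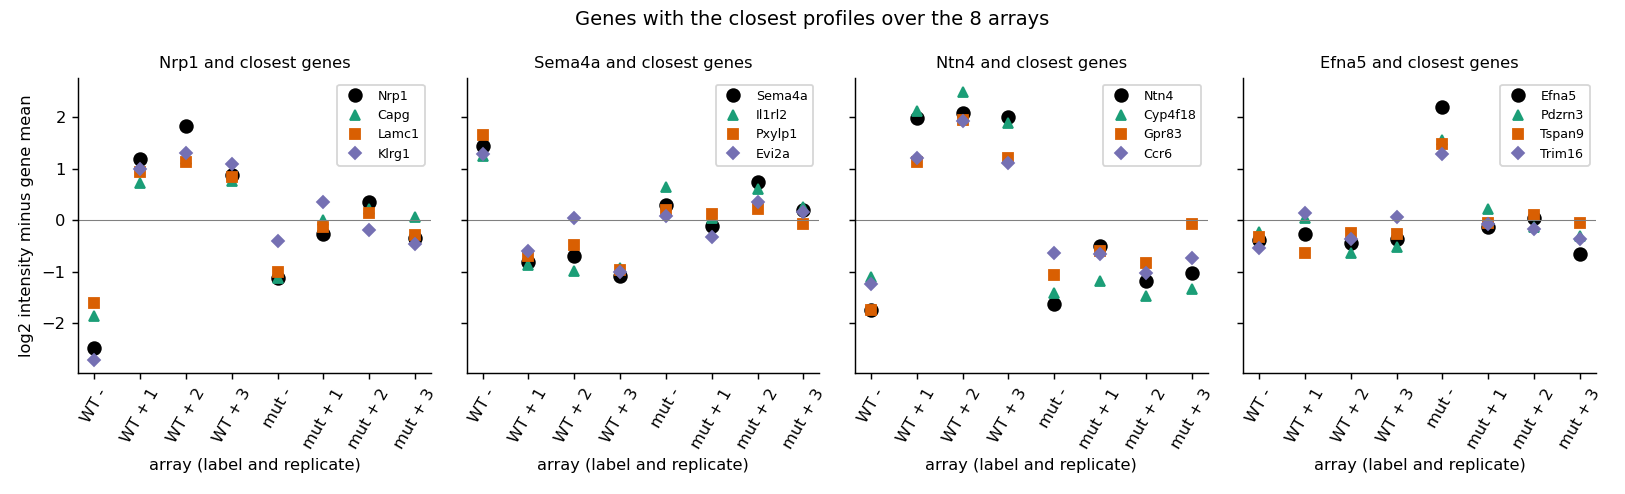
Log2 intensity minus each gene's mean on the 8 arrays for Nrp1, Sema4a, Ntn4 and Efna5 (black) with the 3 genes of closest profile. The 3 WT EGFP-positive arrays are the highest for Nrp1 and Ntn4 and the lowest for Sema4a, and the mutant EGFP-negative array is the highest for Efna5.

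Other genes of these pathways, from lists drawn up with earlier results of these data known, were tested across the whole table. Of 140 further guidance and signalling genes listed, 133 were measured. Between the EGFP-positive groups, 12 rose and 14 fell with the mutant allele (26 of 133, 19.5%, limma, adjusted p under 0.05), where 16.5% of all genes passed, 10.4% higher and 6.02% lower. The median difference over the lists was -0.03, against 0.02 over all genes. Centring each array on CD4 T cell markers raised every mutant minus WT difference by 0.28. Then 33 genes were higher and 10 lower, where 28.7% of all genes were higher and 3.1% lower. The markers used for centring themselves differed between these groups. Their mean, relative to all arrays, was 0.077 to 0.156 on WT and -0.18 to -0.116 on mutant EGFP-positive arrays.

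Of neuropilin-2 and the plexins, 10 genes together, 0 passed in limma, with 2 at an unadjusted p under 0.05, where 28.9% of all genes were. Nrp2 read 6.0 to 6.41 on the WT and 5.41 to 6.16 on the mutant EGFP-positive arrays, and Plxna1, a partner of neuropilin-1, differed by -0.11. Of the 17 further semaphorins, 1 rose, where 10.4% of all genes were higher. Sema4f, a membrane semaphorin, read 7.51, 7.47 and 7.79 on WT and 9.40, 9.54 and 9.40 on mutant EGFP-positive arrays, and 9.43 and 9.92 on the WT and mutant EGFP-negative arrays. It rose by 1.86 (SE 0.13, limma adjusted p = 0.0002), and the other probe set differed by 0.71. Like Sema4a, it was lower on all 3 WT EGFP-positive arrays than on the WT EGFP-negative array.

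Of 5 genes listed as semaphorin receptors outside the plexins or as their relatives, 2 rose and 1 fell. Of all genes, 10.4% were higher and 6.02% lower. Havcr2, which encodes TIM-3, an inhibitory receptor related to the Sema4a receptor TIM-2, read 4.21 to 4.36 on the WT and 6.93 to 8.02 on the mutant EGFP-positive arrays, a rise of 3.33 (SE 0.27, limma adjusted p = 0.00032). Itgb1, an integrin chain bound by Sema7a, rose by 0.83 (SE 0.12, limma adjusted p = 0.0046), and its other probe sets differed by 0.00 to 0.87. Cd72, a receptor for Sema4d best known on B cells, fell by 1.54 (SE 0.16, limma adjusted p = 0.0011). The 7 B cell markers measured summed to 350.5 to 466.1 on WT and 316.3 to 406.2 on mutant EGFP-positive arrays. Of them Ms4a1 was lower on every mutant array, at 4.79 to 4.92 against 5.29 to 6.43, and the others overlapped. The part of the B cell list in the Cd72 result was not tested. Between the EGFP-positive groups, Havcr2 levels moved with the sum of the natural killer cell list. That sum was 183.7 to 257.5 on WT and 2947.5 to 4319 on mutant EGFP-positive arrays, and 2563.2 on the mutant EGFP-negative array. Within the list, Gzma, also a T cell gene, read 5.37 to 5.83 on WT and 11.37 to 11.96 on mutant EGFP-positive arrays. Eomes, also a T cell gene, and Klrk1 were higher on mutant EGFP-positive arrays too. Ncr1 (5.10 to 5.57) and Klra8 (3.65 to 3.91) overlapped between these groups. The 2 CD8 T cell markers summed to 138.5 to 217.7 on WT and 156.2 to 628 on mutant EGFP-positive arrays. Cd8a read 8.5, 8.84 and 5.95 on mutant replicates 1, 2 and 3, where Havcr2 read 7.86, 8.02 and 6.93. The part of either list in the Havcr2 result was not tested.

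Of 16 further netrins and netrin receptors, 2 fell, where 6.02% of all genes were lower. Ntn1, which encodes netrin-1, read 6.52, 6.68 and 6.64 on WT and 4.35, 4.84 and 5.19 on mutant EGFP-positive arrays, and fell by 1.82 (SE 0.20, limma adjusted p = 0.0013), while its other probe set differed by 0.04. Rgmb, a ligand of neogenin, fell by 0.79 (SE 0.19, limma adjusted p = 0.034), and its other probe sets differed by -0.83 to -0.15. That call was lost when any EGFP-positive array other than WT replicate 2 was left out, with adjusted p up to 0.12. Of 7 slits and robos, 0 passed in limma, with 0 at an unadjusted p under 0.05, against the same 28.9% of all genes.

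Of 6 further ephrins and of 13 Eph receptors, 1 each passed, where 16.5% of all genes did. The ephrin gene Efna4 rose by 0.59 (SE 0.14, limma adjusted p = 0.028), and that call too was lost without any EGFP-positive array other than WT replicate 2 (adjusted p up to 0.099). The Eph receptor gene Ephb6, whose product lacks kinase activity and which is expressed by T cells, fell by 0.72 (SE 0.17, limma adjusted p = 0.028), a call lost without WT replicate 3 or any mutant replicate (adjusted p up to 0.11). Efna4, Ephb6, Rgmb and Itgb1 fall outside the naming rule and were named after their values were seen.

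Of 43 intracellular guidance signalling genes, 6 rose and 6 fell, where 10.4% of all genes were higher and 6.02% lower. The Rac regulator Chn2 rose by 1.72 (SE 0.16, limma adjusted p = 0.00063) and its other probe set differed by 2.36. Farp1, an exchange factor that binds plexins, rose by 1.44 (SE 0.13, limma adjusted p = 0.00053) while its other probe set differed by -0.17, and Srgap3, a slit-robo effector, rose by 0.97 (SE 0.15, limma adjusted p = 0.0058), with 0.37 for its other probe set. Trio, an exchange factor acting below netrin receptors, fell by 1.27 (SE 0.11, limma adjusted p = 0.00039), and its other probe sets differed by -1.52 to 0.06.

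Of 16 genes of growth factor co-receptor and AKT signalling, which neuropilin-1 is known to influence in regulatory T cells, 2 rose and 4 fell. Of all genes, 10.4% were higher and 6.02% lower. The AKT-restrained transcription factor genes Foxo1 and Foxo3 fell by 1.81 (SE 0.13, limma adjusted p = 0.00025) and 1.36 (SE 0.12, limma adjusted p = 0.00056), and their other probe sets differed by -1.72 to 0.02 and -1.33 to -0.15. Outside the naming rule, the TGF-beta receptor genes Tgfbr1 and Tgfbr2 fell by 0.75 and 0.72, and Akt1 and Vegfb rose by 0.77 and 0.81 (limma adjusted p = 0.0088, 0.0038, 0.01 and 0.0051). Other probe sets differed by -1.04 to -0.80 for Tgfbr1, -0.75 to 0.04 for Tgfbr2 and -0.23 to 0.91 for Akt1.

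**Figure D4:**
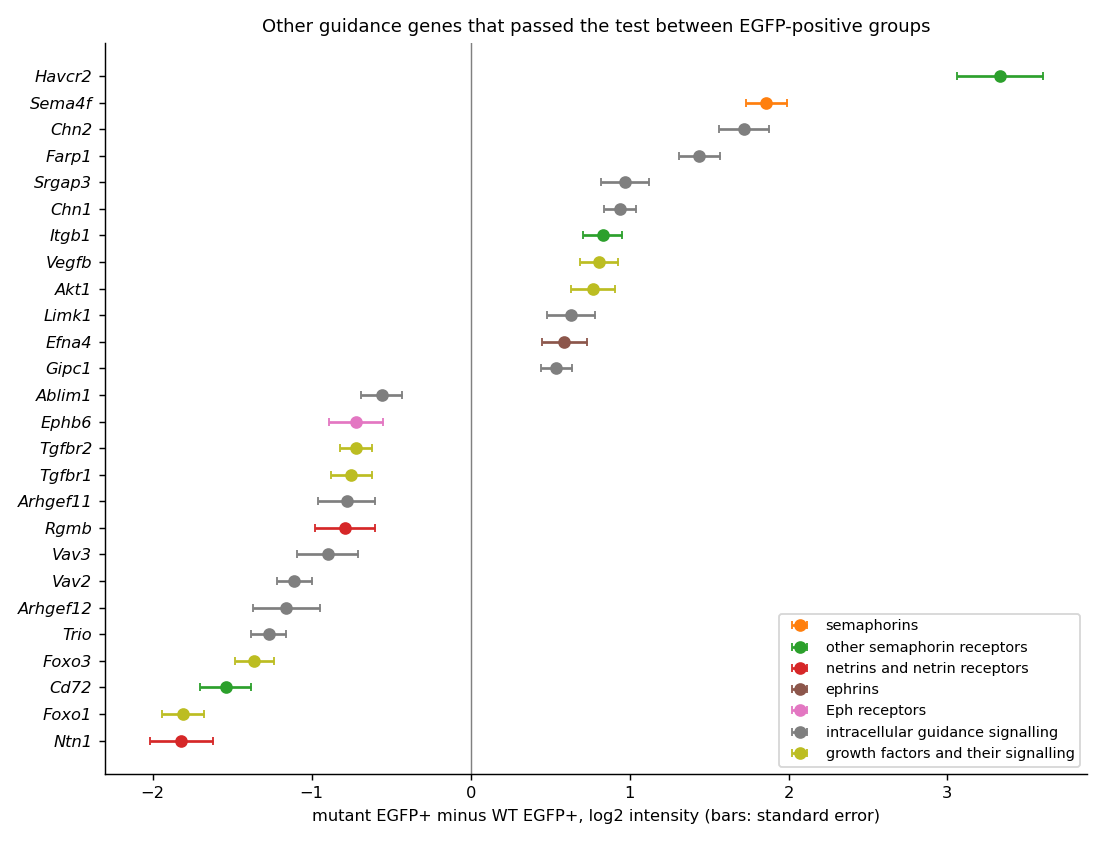
Mutant minus WT EGFP-positive difference in log2 intensity, with its standard error, for the 26 further guidance genes that passed the test, coloured by list. Havcr2 is the highest at 3.33, and Ntn1 and Foxo1 the lowest at -1.82 and -1.81.

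Between WT EGFP-positive and EGFP-negative arrays, 5 of the 133 genes passed (3.76%, limma), where 1.5% of all genes did. Tiam1, a Rac exchange factor that can act below ephrin signals, read 10.64 to 10.78 on the EGFP-positive arrays and 7.56 on the EGFP-negative array, a rise of 3.13 (SE 0.15, limma adjusted p = 0.00048), while its other probe sets differed by -0.11 to 0.11. The exchange factor gene Vav2, Tgfbr1 and Itgb1 rose by 2.18, 1.56 and 1.40, and Sema4f fell by 1.84 (limma adjusted p = 0.0022, 0.0093, 0.011 and 0.0049). Other probe sets differed by 0.50 to 0.74 for Vav2, 1.72 to 1.79 for Tgfbr1, 0.03 to 1.04 for Itgb1 and -0.79 for Sema4f. With the title number series as a block, fewer of the 133 genes passed, and calls over all probe sets fell as well.

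Between mutant EGFP-positive and EGFP-negative arrays, 0 of the 133 genes passed in limma, where 0.0879% of all genes did, and 24 had an unadjusted p under 0.05, as did 11% of all genes. For the difference of the EGFP contrast between alleles, 1 passed, where 0.066% of all genes did. Tiam1 read 10.11 on the mutant EGFP-negative array and 10.61 to 10.73 on the mutant EGFP-positive arrays, so its EGFP contrast was 2.56 smaller with the mutant allele (interaction -2.56, SE 0.21, limma adjusted p = 0.038). That call was lost under 8 alternatives, among them leaving out any EGFP-positive array other than WT replicate 2, with adjusted p up to 0.22. The interaction values of Nrp1 (-2.74), Ntn4 (-3.02), Sema4a (2.27) and Efna5 (-2.46) are a description, since their levels over the 4 groups chose them.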

How the data were processed

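Gene expression was measured on 8 arrays in 4 groups, taken from the labels. The authors deposited 1 linear intensity per probe set and array, made, per the submitters' processing notes, by RMA. That method, whose version the sources used here do not give, subtracts background, equalises the distribution of each array and merges the probes of a set. It compresses differences at low intensity. Of 45101 probe sets, 64 controls were removed, and the fit used the other 45037 unfiltered. The platform annotation gave 1 gene symbol for 34945, several for 932 and none here for 9160, and 34741 matched a current gene record. Those with several symbols stayed unnamed. Log2 was taken without a pseudocount, and no detection calls were used.

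A mean per group was fitted to all 8 arrays with limma 3.58.1 in R 4.3.3 (4 residual and 3.72 prior degrees of freedom), two-sided, with p-values adjusted by Benjamini-Hochberg across the probe sets at a threshold of 0.05. Standard errors come from this fit. It was tested on simulated data for mutant against WT EGFP-positive only, and not for the EGFP contrasts or the interaction. Counts and plots used Python 3.11.15. The 7 genes and all lists were chosen with earlier results of these data known. Other guidance genes were named by a rule: in each comparison, up to 5 with the largest rise and 5 with the largest fall past the threshold. For genes whose group means span at least 2 log2 units, the 3 closest profiles were named. Alternatives were a filter on low values, quantile normalization, centring on CD4 T cell markers, a pseudocount of 16, eBayes with trend, the title number series as a block, the mean of all probe sets, the 6 EGFP-positive arrays alone, and leaving out arrays. The number of arrays limits precision.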

Additional observations from a re-analysis of the deposited data

Results flagged for a closer look

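The EGFP-positive minus EGFP-negative difference of Tiam1 changed by -2.56 from the WT to the mutant allele, by the interaction term in limma (adjusted p = 0.038, and 0.0066 to 0.22 over 14 alternatives). For 3 probe sets of the 7 genes, every EGFP-positive array lay on one side of its EGFP-negative array with the WT allele and on the opposite side with the mutant allele. The difference between the alleles was 0.25 for Sema4d by 1420824_at, -0.63 for Sema4d by 1434596_at and 0.86 for Efnb1 by 1451591_a_at. These 3 differences were not tested, and each rests on single EGFP-negative arrays.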

How the results depend on the processing

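Of 301 alternative values of the differences of the 7 genes, 279 stayed within 1 SD of the reported value and 22 moved further. Several settings leave differences unchanged by construction, so the 279 overstate how stable the values are. These are the filter on low values, eBayes with trend, and, for an EGFP contrast, leaving out arrays of the other allele. For mutant against WT EGFP-positive, the block and the 6 EGFP-positive arrays alone also do so. The sign turned in 21 of the 301 values. For mutant against WT EGFP-positive these were Sema4d, from 0.35 to -0.17 with the mean of all probe sets, and Efna5, from 0.11 to -0.04 without mutant replicate 2. The others concerned the EGFP contrasts of Sema4a, Sema4d, Sema7a, Efna5 and Efnb1, reported at -0.10 to 0.26. Mutant minus WT EGFP-positive ranged from -1.61 to -0.99 for Nrp1, -3.12 to -2.62 for Ntn4, 0.90 to 1.41 for Sema4a, 0.57 to 1.27 for Sema7a and -0.17 to 0.63 for Sema4d. The number of the 7 genes whose EGFP-positive arrays did not overlap was 4 to 6.

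Of the 26 further genes that passed between EGFP-positive groups, 18 passed under all 15 alternatives. Leaving out 1 EGFP-positive array gave 18 to 27 genes, and centring on CD4 T cell markers gave 43, while the share of all genes rose to 31.8%. For WT EGFP-positive against EGFP-negative the count was 5 to 6 with 1 array left out and 2 with the title number series as a block. For mutant EGFP-positive against EGFP-negative it was 1 with the mean of all probe sets, 2 without WT replicate 2 and mutant replicate 3, and 0 to 1 with 1 array left out. For the interaction it was 0 with the filter on low values, with the mean of all probe sets and with the block, 3 without those 2 arrays, and 0 to 2 with 1 array left out. With the block, calls over all probe sets also fell for both EGFP contrasts and for the interaction. The cause of these shifts was not tested. The labels do not explain the title number series, but series 76, 82 and 85 hold replicates 1, 2 and 3. Both EGFP-negative arrays are of series 76, so each EGFP contrast sets 1 series against EGFP-positive arrays of 3 series. Deviations from the group means correlated at 0.121, 0.046 and -0.102 within the series, so the arrays were not treated as paired. Levels below the median of all probe sets, as for Efna5 on 7 arrays and Ntn4 on 3, carry no detection call and leave their differences uncertain.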
